A study of Mus musculus with 16 samples.

Results

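Mucins are large glycoproteins whose repeat domains carry dense O-linked glycans. The membrane mucins hold the cell surface with a transmembrane segment and a short cytoplasmic tail, and their extracellular part can be shed, whereas the gel-forming mucins are secreted and build up mucus. In the seminal vesicle (SV), an androgen-dependent gland of the male reproductive tract, the luminal epithelium secretes most of the seminal fluid proteins, and mucins coat its surface.

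The 8 mucin genes described here were taken by name from a table of 31274 genes with 1 FPKM value (a read level divided by transcript length and by the number of mapped fragments) for each gene in each sample, and all 8 were found. They are 6 membrane mucins (Muc1, Muc4, Muc13, Muc15, Muc16 and Muc20) and 2 gel-forming mucins (Muc5b and Muc6). RNA-seq was performed on SVs that had been freed of the anterior prostate at week 5 of age from 16 samples of male C57BL/6 mice, 4 in each of 4 groups. WT-veh and WT-DES were wild-type pups that received corn oil or diethylstilbestrol (DES, a synthetic oestrogen) at 2 µg per pup per day under the skin on days 1 to 5 after birth, and αERKO-veh and αERKO-DES were pups given the same injections that lacked oestrogen receptor α (ERα) in every tissue. The αERKO mice, in which Esr1 is disrupted globally, came from heterozygous breeding, so ERα was absent from the whole animal and not only from the SV. The WT pups came from pregnant females bought from Charles River. Genotype and source of the mice therefore cannot be told apart in comparisons of αERKO with WT. The RNA methods name individual mice for the other groups but 3 pools of mice for WT-DES, while the table holds 4 WT-DES samples. Whether these 4 are separate pools is therefore not known, and the SDs and p-values that rest on WT-DES treat them as 4 independent samples.

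Esr1, which encodes ERα, followed the genotype labels, lying between 2.81 and 4.55 FPKM in WT-veh and between 8.74 and 19.6 FPKM in WT-DES, whereas the αERKO samples held 1.30 to 1.75 FPKM with vehicle and 0.91 to 1.64 FPKM with DES. The FPKM values summed to 590446 to 652708 per sample in WT-veh and to 375207 to 437619 in WT-DES, so the same FPKM was a larger share of the total in WT-DES. Read counts cannot be had from FPKM, so the depth behind each value is unknown. Among the olfactory receptor genes, which are silent in most tissues, the commonest value above 0 was 0.05 or 0.06 FPKM in every sample, and mucin values at or under this level are given as listed and carry little weight. FPKM is a level per length, so this level is not the same floor for every gene.

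The 8 genes lie on 5 chromosomes of the mouse genome (GRCm38, the build of the files, with GENCODE M21 annotation). Muc1 is a short gene on chromosome 3 (chr3:89229057-89233381, plus strand) between Thbs3 and Trim46. Muc4 (chr16:32735886-32782391, plus strand) and Muc20 (chr16:32777419-32797435, minus strand) lie tail to tail and overlap, with 627 nt of exon in common, which is 5.33% of the exonic length of Muc4 and 15.6% of that of Muc20. Whether the libraries kept the strand is not given in the sources used here, so reads from the shared stretch cannot be assigned to either gene, and both values are uncertain. The shares of length do not bound this uncertainty. Mean levels in WT-DES were 12.7 FPKM for Muc20 and 1.83 FPKM for Muc4, so Muc20 reads could make up more of the Muc4 value than 5.33%. Muc13 (chr16:33794037-33819934, plus strand) lies nearby between Heg1 and Itgb5. Muc15 (chr2:110721340-110739527, plus strand) overlaps Ano3, a calcium-activated channel family gene with means of 0.055 to 0.215 FPKM in the 4 groups. Muc16 (chr9:18495455-18674530, minus strand) has the longest annotated transcript of the 8, at 25437 nt, against 2242 nt for Muc1. Muc5b (chr7:141839070-141873084, plus strand) and Muc6 (chr7:141633456-141655319, minus strand) flank the gel-forming genes Muc2 and Muc5ac.

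Promoter sequences were available from RefSeq (GRCm38.p6) for 6 of the 8 genes. The 250 bases before the start are shown for Muc1, which had the largest change with DES on the log2 scale of FPKM + 1 (by the ratio of mean levels that was Muc13), for Muc20, the most abundant member, and for Muc13, the only tested member whose WT-DES and WT-veh values overlapped. The windows are Muc1 chr3:89228806-89229055 (plus strand), Muc20 chr16:32797436-32797685 (minus strand) and Muc13 chr16:33793787-33794036 (plus strand), each written 5′ to 3′ along the gene, and the capitals mark matches to the motifs named after the sequences.
Muc1: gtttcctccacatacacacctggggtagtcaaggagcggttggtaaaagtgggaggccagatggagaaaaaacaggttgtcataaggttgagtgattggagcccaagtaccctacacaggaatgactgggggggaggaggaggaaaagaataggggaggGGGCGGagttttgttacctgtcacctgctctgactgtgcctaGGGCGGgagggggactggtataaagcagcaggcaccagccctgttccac
Muc20: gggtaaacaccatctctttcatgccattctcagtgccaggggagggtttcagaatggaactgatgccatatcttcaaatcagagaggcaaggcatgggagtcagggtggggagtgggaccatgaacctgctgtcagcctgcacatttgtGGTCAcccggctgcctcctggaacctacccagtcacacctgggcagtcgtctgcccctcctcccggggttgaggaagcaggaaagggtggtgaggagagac
Muc13: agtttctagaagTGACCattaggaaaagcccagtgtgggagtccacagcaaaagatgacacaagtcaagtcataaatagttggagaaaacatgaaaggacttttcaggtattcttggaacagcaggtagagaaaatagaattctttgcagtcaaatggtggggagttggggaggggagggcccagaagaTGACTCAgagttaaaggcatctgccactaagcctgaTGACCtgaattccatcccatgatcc

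Both strands of each window were searched for the oestrogen receptor element GGTCANNNTGACC, its GGTCA core alone, the AP-1 site TGANTCA, the androgen receptor core AGAACA and the GC box GGGCGG. The full oestrogen receptor element was found in none of the windows of the 6 genes and in 0.0645% of 32536 mouse promoter windows of the same length. The GGTCA core, which 35.3% of all windows hold and which is also contained in the full element, was found once in Muc20 and at 2 places in Muc13, and 3 more matches lay in the window of a second Muc13 start. Muc1 held 2 GC boxes, at bases -91 and -49 before the start, a motif found in 33.0% of all windows. The AP-1 site, found in 6.73% of all windows, had 1 match in Muc13, at base -61, and the window of the second start had 1 as well. Muc16 had 1 AGAACA core, at base -41, which 16.03% of all windows hold, and neither Muc4 nor Muc6 had a match to any of the 5 motifs. These matches describe the letters of the windows only.

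All 6 membrane mucins were higher after DES in WT mice, and the gel-forming mucins stayed near 0. The summed FPKM of the 8 genes was 3.07, 3.75, 3.32 and 3.06 in WT-veh samples 1 to 4 and 27.27, 42.19, 24.03 and 30.70 in WT-DES samples 1 to 4. In αERKO-veh the sums were 2.01 to 4.35 and in αERKO-DES 1.34 to 3.34. The WT-DES samples were thus all far above the other 3 groups, whose ranges overlapped each other. Since whole SVs were sequenced, a change in the number of cells that express a mucin and a change in the RNA per cell cannot be told apart here.

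**Figure D1:**
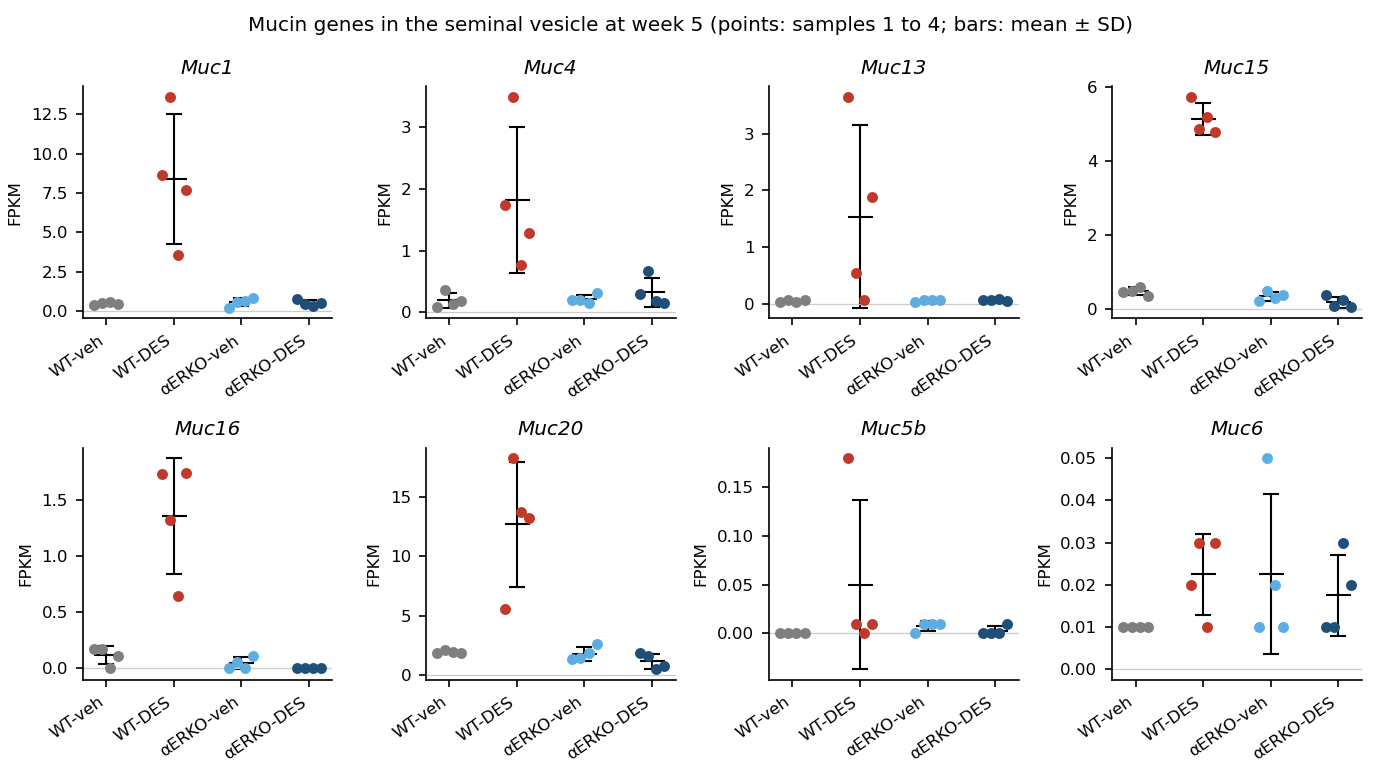
FPKM of the 8 mucin genes (vertical axes, scaled for each gene) by group, with 1 point for each sample and the mean ± SD of 4 samples in black. The WT-DES samples lie above all others for Muc1, Muc4, Muc15, Muc16 and Muc20, 1 WT-DES sample of Muc13 lies at 0.08 FPKM among the controls, and Muc5b and Muc6 stay at or under 0.18 FPKM.

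To ask which of these differences exceeded the spread between samples, log2(FPKM + 1) was compared with limma over 15988 genes whose average exceeded 1 FPKM in some group. The fit takes a single spread per gene for all groups. For Muc1, Muc13 and Muc20, WT-DES varied more than the other groups. For these genes the SEs and p-values of comparisons with WT-DES understate the uncertainty. A gene was called a DEG (differentially expressed gene) at an adjusted p of 0.05 or less if its group averages differed by a ratio of 1.5 or more and either average exceeded 1 FPKM. Of the 8 mucins, 6 passed the minimum, but Muc1, Muc4, Muc13, Muc15 and Muc16 did so through WT-DES alone, so that these 5 entered the test because they were high there. Muc20 alone was above the minimum in every group, and Muc5b and Muc6 were not tested. In WT-DES versus WT-veh all 6 tested mucins were DEGs with higher levels, in a comparison in which 28.9% of all tested genes were higher DEGs, 23.9% were lower DEGs and 52.7% were DEGs in either direction. Since 5 of the 6 were chosen for the test by their level in WT-DES, this count is a description and no measure of how mucins as a group responded. The log2 changes given for each gene are on the FPKM + 1 scale, which understates the change of low genes. With 0.1 in place of 1 they were 3.73 for Muc1, 2.59 for Muc4, 2.65 for Muc13, 3.22 for Muc15, 2.79 for Muc16 and 2.51 for Muc20.

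Muc1, the membrane mucin found on most glandular epithelia, had 0.41, 0.52, 0.56 and 0.44 FPKM in WT-veh and 8.66, 13.63, 3.59 and 7.71 FPKM in WT-DES. WT-DES 2 was highest and WT-DES 3 lowest, and the groups did not overlap. The ratio of the mean levels was 17.4, with a log2 change of 2.55 ± 0.25 (SE) on the FPKM + 1 scale (limma, adjusted p = 3.96e-07). In αERKO mice Muc1 was at 0.22, 0.57, 0.63 and 0.83 FPKM with vehicle and at 0.77, 0.43, 0.31 and 0.51 FPKM with DES. These groups overlapped fully, with a log2 change of -0.05 and a 95% interval from -0.59 to 0.49.

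Muc20, a small membrane mucin that is known to bind the receptor Met, was the most abundant member in all 4 groups. Its values were 1.90, 2.12, 1.99 and 1.89 FPKM in WT-veh and 5.54, 18.29, 13.75 and 13.25 FPKM in WT-DES. WT-DES 1 stood well below the other WT-DES samples but still above all WT-veh samples. The ratio of the mean levels was 6.43, with a log2 change of 2.10 ± 0.28 (adjusted p = 7.72e-06, limma), and without WT-DES 1 the log2 change was 2.42. In αERKO-veh Muc20 was at 1.34, 1.43, 1.85 and 2.64 FPKM, and in αERKO-DES at 1.83, 1.58, 0.50 and 0.78 FPKM. The αERKO groups overlapped, although αERKO-DES 3 and 4 had the lowest values of all, and the log2 change of -0.40 (95% interval -0.99 to 0.20) did not pass the test (limma, adjusted p = 0.383). With samples weighted by their fit this decrease passed, at a log2 change of -0.63 (limma, adjusted p = 0.0074).

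Muc15, a membrane mucin first described in milk fat, had the tightest WT-DES values of the 6. It was at 0.46, 0.49, 0.59 and 0.34 FPKM in WT-veh and at 5.74, 4.87, 5.19 and 4.78 FPKM in WT-DES. The log2 change was 2.06 ± 0.11, the smallest SE of the tested mucins, and the ratio of the mean levels was 10.9 (limma, adjusted p = 1.38e-09). In αERKO-veh it was at 0.20, 0.47, 0.28 and 0.37 FPKM, and in αERKO-DES at 0.36, 0.07, 0.22 and 0.04 FPKM. The αERKO groups overlapped and the log2 change of -0.19 (95% interval -0.42 to 0.05) did not pass the test.

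Muc4, a large membrane mucin with EGF-like domains that is known to associate with the receptor ErbB2, was much lower in level. It was at 0.09, 0.36, 0.14 and 0.19 FPKM in WT-veh and at 1.75, 3.50, 0.77 and 1.29 FPKM in WT-DES. WT-DES 2 was the highest and WT-DES 3 the lowest, as for Muc1, and the groups did not overlap. The ratio of the mean levels was 9.37 and the log2 change 1.16 ± 0.22 (limma, adjusted p = 2.11e-04). How much of the Muc4 level came from reads of the overlapping Muc20 is not known. In αERKO mice Muc4 was at 0.21, 0.20, 0.16 and 0.31 FPKM with vehicle and at 0.30, 0.67, 0.19 and 0.16 FPKM with DES. The αERKO groups overlapped, and αERKO-DES 2 at 0.67 FPKM came close to the lowest WT-DES sample.

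Muc16, the giant membrane mucin that carries the CA125 epitope and binds mesothelin, was at 0.17, 0.17, 0.00 and 0.11 FPKM in WT-veh and at 1.73, 1.32, 0.64 and 1.74 FPKM in WT-DES. The groups did not overlap, the ratio of the mean levels was 12.1 and the log2 change was 1.06 ± 0.14 (limma, adjusted p = 1.04e-05). It was at 0.00, 0.05, 0.00 and 0.11 FPKM in αERKO-veh and was listed at 0 in all 4 αERKO-DES samples. The longest annotated transcripts of Muc16 and Muc4 have 25437 and 11277 nt, against a median of 3244 nt over the tested genes. With a trend of the changes on transcript length removed, Muc16 changed by 0.34 with DES in WT (limma, adjusted p = 0.0854) and was no longer a DEG, while Muc4 remained one. With quantile normalization the log2 change of Muc16 was 0.71 (adjusted p = 0.000253, limma), which passed the test, but the rescaled averages were under 1 FPKM and too low for a call.

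Muc13, a membrane mucin best known from the intestinal surface, was the least even of the 6. It was at 0.03, 0.08, 0.03 and 0.08 FPKM in WT-veh and at 3.65, 0.54, 0.08 and 1.89 FPKM in WT-DES. WT-DES 1 was highest, while WT-DES 3 was at the level of the controls, so the groups overlapped. The ratio of the mean levels was 28.0 and the log2 change 1.04 ± 0.31 (limma, adjusted p = 0.00703), and an exact two-sided permutation test of the FPKM gave p = 0.0857. Without WT-DES 1 the ratio of the mean levels was 15.2, Muc13 was not tested because its WT-DES mean of 0.837 FPKM was under the minimum, and 5 mucins were DEGs. In αERKO mice Muc13 stayed between 0.03 and 0.09 FPKM in all 8 samples.

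The gel-forming mucins gave no comparable level. Muc5b, the main mucin of airway glands, stood at 0 throughout WT-veh and at 0.18, 0.01, 0.00 and 0.01 FPKM in WT-DES, so that its highest value was again in WT-DES 1. It was at 0.01 FPKM or less in all 8 αERKO samples. Muc6, a mucin of gastric and Brunner's glands, was between 0.01 and 0.05 FPKM in all 16 samples, with the highest value in αERKO-veh 2.

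**Figure D2:**
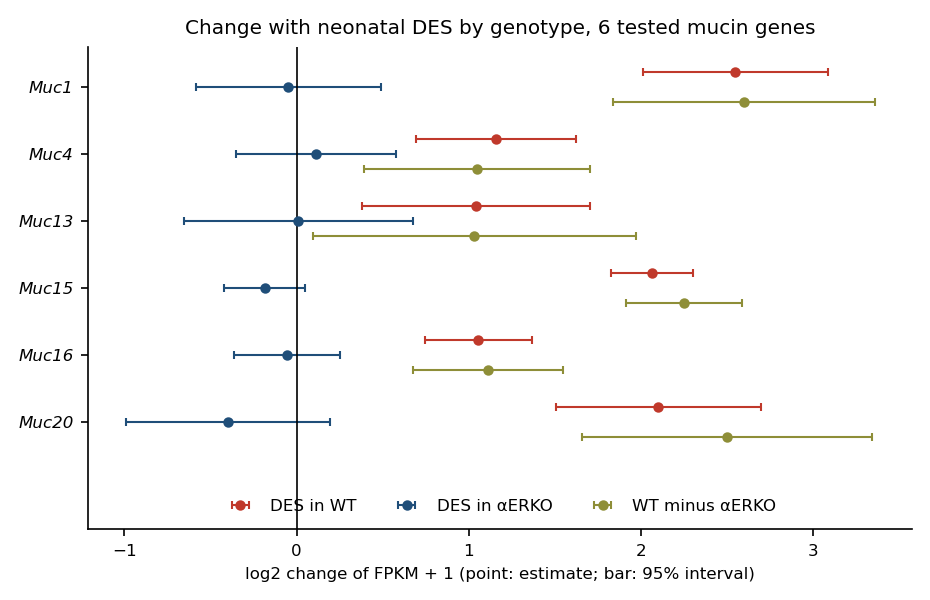
Change with neonatal DES in the 6 tested mucins as the log2 difference of FPKM + 1 with its 95% interval, for WT (WT-DES versus WT-veh), for αERKO (αERKO-DES versus αERKO-veh) and for the WT change minus the αERKO change. The WT intervals all lie above 0 and the αERKO intervals all include 0.

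In αERKO-DES versus αERKO-veh 1.49% of all tested genes were DEGs (0.0876% higher and 1.41% lower). Only Muc20 could be called there, since the other 5 tested mucins had averages under 1 FPKM in both groups, and Muc20 was not a DEG. None of the 6 had an unadjusted limma p under 0.05. With sample weights Muc15 reached an adjusted p of 0.0078 (limma) at a level too low for a call. The intervals left room for changes of up to about 0.67 on the log2 scale upwards in Muc13 and 0.99 downwards in Muc20. They rest on a single spread per gene shared by all groups, so they do not measure the spread within αERKO alone. For Muc13 the SD was 0.022 FPKM in αERKO-veh and 0.016 FPKM in αERKO-DES, against 1.60 FPKM in WT-DES, which widens its interval. Whether the change with DES differed between the 2 genotypes was tested directly, as the change in WT minus the change in αERKO. All 6 mucins passed this test, which 56.4% of all tested genes also passed (29.6% with a positive and 26.9% with a negative difference). The limit that 5 of the 6 were tested through their level in WT-DES holds here too, as that level also makes the difference positive. The difference on the log2 scale was 2.60 for Muc1 (limma, adjusted p = 1.46e-05), 2.50 for Muc20 (adjusted p = 5.22e-05) and 2.25 for Muc15 (adjusted p = 3.53e-08). It was 1.11 for Muc16 (limma, adjusted p = 2.05e-04), 1.05 for Muc4 (adjusted p = 0.00695) and 1.03 for Muc13 (adjusted p = 0.0466). The Muc13 difference passed in only 8 of the 25 alternative settings in which it was tested, and was lost when any 1 WT-veh or αERKO sample, or WT-DES 4, was left out. With the length trend removed, the difference fell to 0.34 for Muc4 (limma, adjusted p = 0.372) and to 0.11 for Muc16 (adjusted p = 0.686), and both calls were lost. The Muc4 call was also lost with quantile normalization, at 0.53 (limma, adjusted p = 0.133).

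The DES-exposed groups were also compared across genotypes. In αERKO-DES versus WT-DES all 6 tested mucins were DEGs with lower levels, where 29.6% of all tested genes were lower DEGs, 23.7% were higher DEGs and 53.4% were DEGs in either direction, with the same limit that 5 of the 6 were tested through their level in WT-DES. Muc16 still passed the test with quantile normalization (log2 change -0.89, limma, adjusted p = 3.08e-05) and with the length trend removed (-0.74, adjusted p = 0.00112), but its rescaled averages were then under 1 FPKM, too low for a call. This comparison shares the WT-DES samples with WT-DES versus WT-veh. In αERKO-DES versus WT-veh, where 3.18% of all tested genes were DEGs (1.21% higher and 1.97% lower), Muc20 was again the only mucin with an average above 1 FPKM and was not a DEG. Muc15, too low for a call in both groups, had a log2 change of -0.33 (95% interval -0.57 to -0.09, limma, adjusted p = 0.0767), and its adjusted p ran from 0.0042 to 0.254 over the alternatives. Muc20 was below the WT-veh range in all 4 αERKO-DES samples (0.50 to 1.83 against 1.89 to 2.12 FPKM, exact permutation p = 0.0286, the smallest that 4 against 4 samples allow), but its log2 change of -0.50 did not pass with limma (adjusted p = 0.269).

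The genotypes without DES were compared in αERKO-veh versus WT-veh, where 7.12% of all tested genes were DEGs (4.5% higher and 2.63% lower). Loss of ERα and the source of the mice cannot be told apart here. Muc20, the only mucin that was high enough to be called, was not a DEG. None of the 6 tested mucins had an unadjusted limma p under 0.05, and the log2 changes ran from -0.15 for Muc15 to 0.06 for Muc1. With the length trend removed Muc16 differed by -0.62 on the log2 scale (adjusted p = 0.0325, limma), again at a level too low for a call. The 2 vehicle groups overlapped for all 8 genes.

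Muc20 was first and Muc1 second in all 4 groups by mean FPKM, a level per length. Muc15 and Muc4 came next except in αERKO-DES, where Muc4 (0.16 to 0.67 FPKM) and Muc15 (0.04 to 0.36 FPKM) stood in the other order with overlapping ranges and Muc16, listed at 0, was last. In WT-veh Muc20 did not overlap Muc1, while Muc1 and Muc15 (0.41 to 0.56 and 0.34 to 0.59 FPKM) overlapped. In WT-DES the ranges of Muc20 (5.54 to 18.29 FPKM) and Muc1 (3.59 to 13.63 FPKM) overlapped, as did those of Muc1 and Muc15. Muc4, Muc13 and Muc16, with means of 1.83, 1.54 and 1.36 FPKM in WT-DES, overlapped each other, and Muc5b and Muc6 came last in that group.

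As a measure that does not depend on scaling between libraries, the share of each mucin in the summed FPKM of the 8 was computed. Muc1 made up 13.4%, 13.9%, 16.9% and 14.4% in WT-veh and 31.8%, 32.3%, 14.9% and 25.1% in WT-DES. WT-DES 3 was thus within the WT-veh range, and the other 3 WT-DES samples were above it. The mean share was 14.6% ± 1.56 (SD, n = 4) in WT-veh and 26.0% ± 8.08 (SD, n = 4) in WT-DES, a difference of 11.4 percentage points that did not pass 0.05 in an exact two-sided permutation test (p = 0.0571). In αERKO the shares were 17.7% ± 4.56 (SD, n = 4) with vehicle and 23.5% ± 7.07 (SD, n = 4) with DES (exact permutation p = 0.286). The share of Muc20 was 56.5% to 61.9% in WT-veh and 20.3%, 43.4%, 57.2% and 43.2% in WT-DES samples 1 to 4, with the lowest share in the sample that had the most Muc13.

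**Figure D3:**
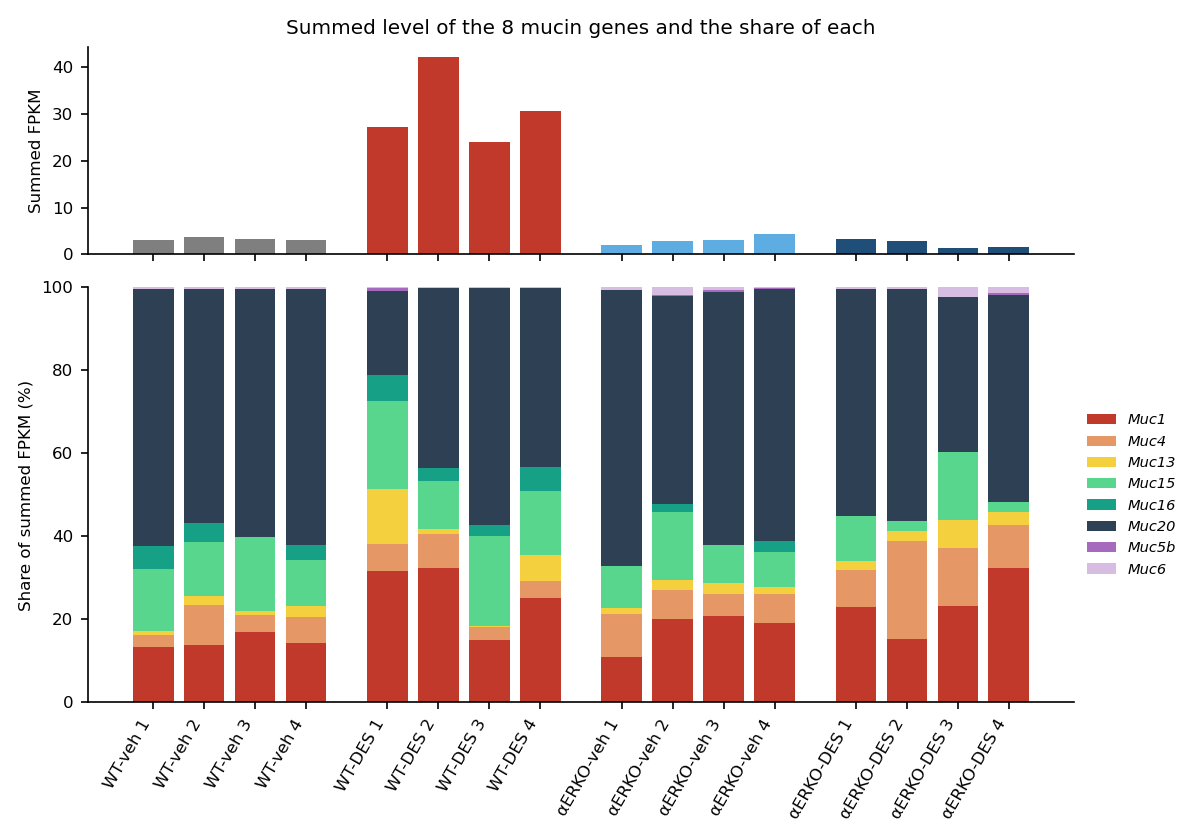
Summed FPKM of the 8 mucin genes in each sample (upper bars) and the percentage of that sum from each gene (lower stacked bars). The sums reach 24.03 to 42.19 FPKM in WT-DES and stay at or under 4.35 FPKM elsewhere, and Muc20 and Muc1 together make up the larger part of every bar.

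Markers of several cell types moved along with the mucins, in a comparison in which 28.9% of all tested genes were higher and 23.9% lower DEGs. Markers of simple epithelium gave 5 lower and 0 higher DEGs of 8 in WT-DES versus WT-veh, and basal and squamous epithelium markers gave 6 higher DEGs of 8. Of the basal and squamous list, Krt6a, Krt13 and Sprr3 entered the test through their level in WT-DES alone. Leukocyte markers gave 10 higher DEGs and 1 lower DEG of 11, the latter being Cd52, whose mean fell from 2919 to 452 FPKM and which carried most of the summed level of the list in WT-veh (3137 to 3405 FPKM), where the sum in WT-DES was 1495 to 2302 FPKM. The counts were 5 higher DEGs of 6 for fibroblast markers and 5 lower DEGs of 6 for smooth muscle markers. The SV secretion genes, which define the tissue and summed to 56386 to 65570 FPKM in WT-veh against 2580 to 8512 FPKM in WT-DES, gave 10 lower DEGs of 10 and the prostate secretion genes 6 lower DEGs of 6. The part of these shifts in the mucin levels was not tested.

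WT-DES 1 stood apart from the other WT-DES samples by several of these lists, and it was also the sample with the highest Muc13 and Muc5b and the lowest Muc20. By the basal and squamous markers WT-DES 1 did not stand apart, at 493 FPKM against 158 FPKM in WT-DES 3 and 707 FPKM in WT-DES 4. Its 4 urothelium markers, all of them detected, summed to 1587 FPKM, against 84.0 to 225 FPKM in the other WT-DES samples and 60.7 to 156 FPKM in WT-veh. Its 7 mesothelium markers summed to 534 FPKM, against 98.5 to 118 FPKM in the other WT-DES samples, but 2 uroplakins of that list (Upk1b and Upk3b) made up 502 FPKM of this sum. The other 5 mesothelium markers summed to 31.6 FPKM in WT-DES 1, within the 24.3 to 44.1 FPKM of the other WT-DES samples, and to 7.04 FPKM or less in WT-veh. Its smooth muscle markers summed to 3580 FPKM, within the 2993 to 3734 FPKM of WT-veh, while the other WT-DES samples held 791 to 1256 FPKM. It was also above the others for prostate secretion genes (703 against 95.5 to 420 FPKM) and simple epithelium markers (1277 against 930 to 1059 FPKM) and below them for leukocyte markers (1495 against 1631 to 2302 FPKM). Upk3a, a uroplakin of the bladder surface, was at 500.59, 18.05, 68.88 and 62.61 FPKM in WT-DES samples 1 to 4 and at 1.53 to 15.0 FPKM in WT-veh. Of the mesothelium list 5 of 6 tested genes were higher DEGs in WT-DES, and of the urothelium list 3 of 4. Lrrn4 of the mesothelium list entered the test through its level in WT-DES alone. Without WT-DES 1 the log2 changes in WT were 2.50 for Muc1, 1.14 for Muc4, 2.02 for Muc15, 0.98 for Muc16 and 2.42 for Muc20, and all 5 genes were still DEGs.

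**Figure D4:**
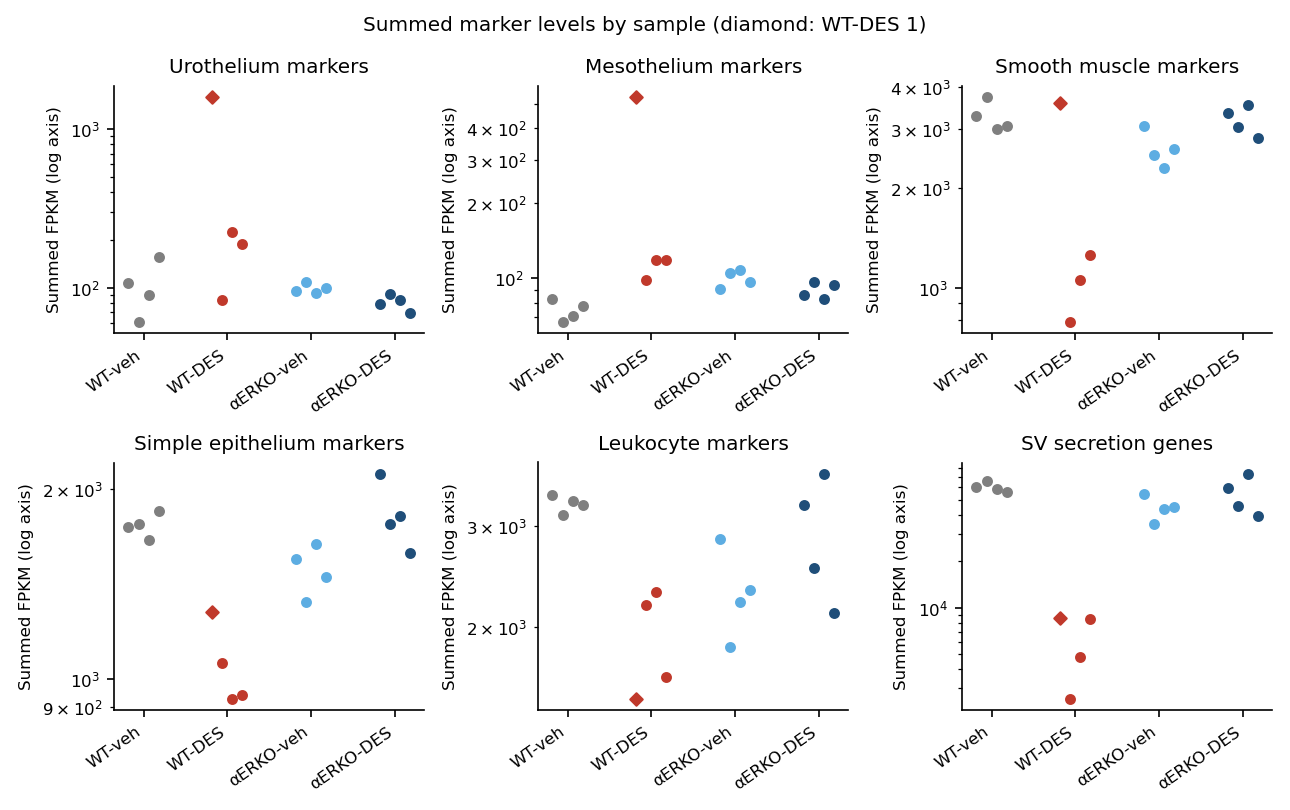
Summed FPKM of 6 marker lists in each sample on log axes, by group, with WT-DES 1 drawn as a diamond. WT-DES 1 lies above the other WT-DES samples for urothelium markers (1587 FPKM), for the mesothelium list (534 FPKM, of which 502 FPKM came from Upk1b and Upk3b) and for smooth muscle markers (3580 FPKM, at the level of WT-veh).

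Beyond the 8 members, 12 of 15 other mucins and mucin-like genes were found in the table, and 6 of them were tested. Emcn (endomucin) and Mcam, both cell surface glycoproteins of blood vessels, were higher DEGs in WT-DES. Emcn was at 20.92 to 24.62 FPKM in WT-veh and at 25.70 to 50.00 FPKM in WT-DES, higher by 0.81 on the log2 scale (adjusted p = 0.000385, limma). Mcam was at 29.51 to 36.59 FPKM in WT-veh and at 45.26 to 75.41 FPKM in WT-DES, higher by 0.80 on the log2 scale (adjusted p = 0.000285, limma). Cd164 (endolyn), a sialomucin of lysosomes and progenitor cells, fell from 123.21 to 132.21 FPKM in WT-veh to 82.27 to 85.02 FPKM in WT-DES, with a log2 change of -0.61 (adjusted p = 1.21e-06, limma). Ovgp1, the oviductal glycoprotein, had means of 1.40 to 2.00 FPKM in the 4 groups and was not a DEG. None of the 6 was a DEG in αERKO-DES versus αERKO-veh.

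Muc3, Muc5ac, Muc2 and Muc19 were low in every group. Muc3 was listed at 0 in all samples, Muc5ac was at 0.02 FPKM or less, and Muc2 was at 0.13 to 0.41 FPKM in WT-DES and at 0.05 to 0.19 FPKM in the other groups. Muc19 reached 0.28 FPKM in WT-veh and 0.57 FPKM in αERKO-veh but no more than 0.04 FPKM in WT-DES and 0.09 FPKM in αERKO-DES. Prol1, also known as Muc10, a mucin of the submandibular gland, ran from 0.29 to 1374.91 FPKM in WT-veh and from 8.32 to 939.92 FPKM in αERKO-veh, but only from 0.07 to 7.59 FPKM in WT-DES and 0.93 to 5.97 FPKM in αERKO-DES. No comparison of Prol1 passed the test. Mucl1 reached 0.88 FPKM at most, the Muc21 gene, listed as Gm9573, 1.88 FPKM and the Mucl2 gene, listed as Spt1, 0.81 FPKM.

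Mucins depend on enzymes that build their O-glycans, and among them were genes that rose and genes that fell. The GalNAc transferases attach the first sugar, and of 15 tested 6 were higher and 2 lower DEGs in WT-DES versus WT-veh, a share close to the 52.7% of all tested genes, with a median log2 change of 0.13. Galnt6, Galnt12 and Galnt14 entered the test through their level in WT-DES alone, so the count is a description. Galnt15 rose from 1.81 ± 0.49 to 23.7 ± 7.1 FPKM (SD, n = 4), Galnt16 from 2.53 ± 0.45 to 15.2 ± 6.0 FPKM, Galnt6 from 0.45 ± 0.12 to 6.46 ± 4.3 FPKM and Galnt12 from 0.76 ± 0.25 to 3.92 ± 0.49 FPKM. These 4 had the largest changes of the list, and Galnt6 was highest in WT-DES 1, at 12.92 FPKM.

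Of 12 tested enzymes that extend, branch or cap the O-glycans, 8 were higher and 2 lower DEGs (28.9% and 23.9% of all tested genes), with a median log2 change of 0.84 against -0.01 over all tested genes. The sialyltransferases St3gal1 and St3gal4 rose from 5.31 ± 0.53 to 18.2 ± 2.5 FPKM and from 8.09 ± 0.63 to 24.8 ± 2.1 FPKM. Fut2, the fucosyltransferase that forms H antigen on secreted glycoproteins, fell from 64.0 ± 2.4 to 6.27 ± 0.84 FPKM, and C1galt1c1, the chaperone of the core 1 synthase, from 59.9 ± 5.4 to 18.8 ± 3.7 FPKM. Neither list had a DEG in αERKO-DES versus αERKO-veh.

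Of 11 tested genes of mucous and secretory cells, 6 were lower and 4 higher DEGs in WT-DES (23.9% and 28.9% of all tested genes), with a median log2 change of -1.08. Agr2, a disulphide isomerase needed for mucin folding, fell from 564 ± 27 to 16.8 ± 8.3 FPKM. Bhlha15, a transcription factor of secretory cells, fell from 205 ± 6.1 to 15.3 ± 11 FPKM, and Fcgbp, a protein secreted with mucus, from 52.5 ± 15 to 3.10 ± 1.8 FPKM. Clca2 rose from 5.34 ± 0.51 to 69.8 ± 13 FPKM. The table uses older symbols for the Clca family. RefSeq lists Clca1 as an older symbol of Clca3a1 and Clca2 as one of both Clca3a2 and the goblet cell gene Clca1, so the identity of these rows is uncertain, and without them 6 of 9 tested genes were lower and 2 higher DEGs. The row Clca3, an older symbol of the goblet cell gene alone, was not on the list and was at 0.36 to 2.66 FPKM in WT-veh, 0.70 to 10.24 FPKM in WT-DES, 0.87 to 13.46 FPKM in αERKO-veh and 0.14 to 1.70 FPKM in αERKO-DES, with overlap between WT-veh and WT-DES.

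Of 8 proteins that are known to bind or cleave membrane mucins, 5 were higher DEGs and none was a lower DEG (28.9% and 23.9% of all tested genes), with a median log2 change of 0.89. Msln (mesothelin), the ligand of Muc16, was at 0.32, 0.23, 0.17 and 0.61 FPKM in WT-veh and at 14.99, 19.17, 6.82 and 10.01 FPKM in WT-DES. It did not overlap between the groups, and it was lowest in WT-DES 3, as were Muc1, Muc4, Muc13 and Muc16. Msln is also a mesothelium marker and the part of mesothelial cells in its level was not tested. Lgals3 (galectin-3) rose from 17.2 ± 6.4 to 123 ± 44 FPKM, Egfr from 4.54 ± 0.39 to 11.7 ± 1.7 FPKM and Mmp14, a membrane protease, from 59.3 ± 2.4 to 117 ± 15 FPKM. Erbb2, the receptor that Muc4 binds, and Met, the receptor that Muc20 binds, were not DEGs, with means of 27.3 and 11.1 FPKM in WT-veh and 21.1 and 13.7 FPKM in WT-DES.

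**Figure D5:**
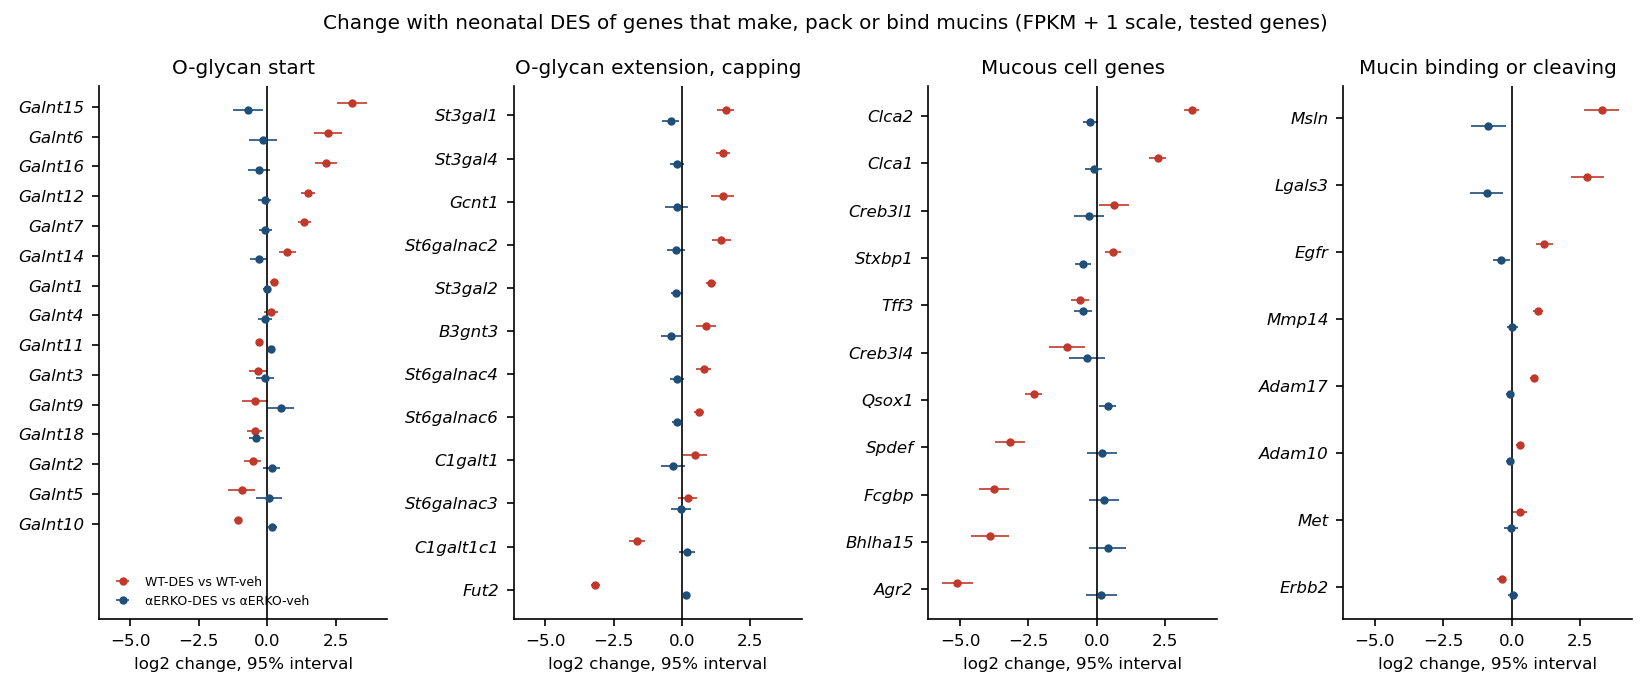
Log2 change with DES (FPKM + 1 scale, with 95% interval) in WT and in αERKO for the tested genes of 4 lists, ordered by the WT change. Galnt15, Clca2 and Msln have the largest increases of their lists in WT and Agr2 the largest decrease, and no gene of the 4 lists was a DEG in αERKO. Clca1 and Clca2 are the older symbols of the table.

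The neighbours of the mucins on the chromosome did not share a common change. Beside Muc1, Thbs3 was at 7.47 ± 0.48 FPKM in WT-veh and 21.0 ± 3.9 FPKM in WT-DES (SD, n = 4), and Trim46 at 3.13 ± 0.23 and 3.60 ± 0.40 FPKM. Tnk2, before Muc4, was at 91.8 ± 3.6 and 39.6 ± 12 FPKM, thus lower where Muc4 and Muc20 were higher. Around Muc13, Heg1 was at 7.32 ± 1.6 and 20.4 ± 7.0 FPKM and Itgb5 at 28.7 ± 2.0 and 47.0 ± 9.4 FPKM. Tollip and Ap2a2, at the ends of the gel-forming cluster, were at 40.9 ± 0.72 and 35.6 ± 1.5 FPKM in WT-veh and at 26.8 ± 2.3 and 31.9 ± 2.8 FPKM in WT-DES.

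The genes with the most similar profiles were sought by the root mean square difference of centred log2(FPKM + 1) over the 16 samples. Pmaip1 (0.22) and F3 (0.24), which encode a pro-apoptotic protein and tissue factor, were nearest to Muc1. Nfam1 (0.12) and Pde1b (0.13) were nearest to Muc15, and Scara3 (0.20) and Nmur2 (0.22) to Muc20. For Muc4 they were Dcdc2a (0.17) and Blk (0.18), for Muc13 Cyp4f39 (0.18) and Clca4 (0.21), and for Muc16 Myl7 (0.10) and Ccdc129 (0.12). Muc5b and Muc6, being flat near 0, were nearest to genes with flat profiles (Ptpra at 0.05 and Aggf1 at 0.04). The values share the same libraries and group differences and are given as a description.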

How the data were processed

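The authors derived the deposited FPKM from quality-filtered paired-end reads aligned to mm10 (GRCm38) with TopHat 2.0.4 and quantified by gene with Cufflinks 2.0.2. Any further scaling, the gene annotation and strandedness are not given in the sources used here. FPKM are not counts, so depth is unknown, and precision rests on 4 samples per group. Groups were read from the sample titles. Whether WT-DES samples were separate pools is not given per sample, so p-values measure the spread between these samples. In limma this spread is a single value per gene over all groups, also where WT-DES varied more.

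log2(FPKM + 1) of 15988 genes (mean FPKM above 1 in a group) was fitted in R 4.3.3 with limma 3.58.1, with a mean per group over 16 samples, trended variances and p-values adjusted by Benjamini-Hochberg across all tested genes. The test was first tested on simulated data. Shares were compared by exact permutation (70 arrangements). Marker, glycan, mucus and partner lists were described by counts and medians. From each glycan, mucus and partner list the 4 DEGs with the largest WT-DES change were named, with all members, the nearest coding neighbours and the 2 most similar profiles. The members and lists were chosen with earlier results of these data known. Exon overlaps came from GENCODE M21 and promoters from RefSeq GRCm38.p6. Alternatives were other pseudocounts, minimums, normalizations and variance models, a length trend, a replicate block and samples left out.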

Additional observations from a re-analysis of the deposited data

Results flagged for a closer look

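The change with DES differed between WT and αERKO by a direct test of the difference for 9 genes of the mucin lists, in a test that 56.4% of all tested genes passed, and 5 of the 9 (Muc1, Muc4, Muc13, Muc15 and Muc16) were tested only through their level in WT-DES. On the log2 scale of FPKM + 1, the WT change minus the αERKO change was 2.60 for Muc1, 1.05 for Muc4, 1.03 for Muc13, 2.25 for Muc15, 1.11 for Muc16 and 2.50 for Muc20. The Muc13 difference passed in 8 of 25 alternatives, those of Muc4 and Muc16 did not pass with the length trend removed, and that of Muc4 did not pass with quantile normalization either. The difference was 0.93 for Emcn, 0.93 for Mcam and -0.71 for Cd164.

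In 10 of 76 groups of 4 samples, 1 sample lay outside the range that Dixon's test allows for the other 3. Chance gives about 1 such group in 20 for normally distributed values, and FPKM need not be distributed so. In 6 of the 10 the other 3 samples tied, which rounding to 2 decimals makes common among low values, so this rate does not apply to them. WT-DES 1 was such a sample for Muc5b, at 0.18 FPKM against 0.01 FPKM or less in the other WT-DES samples, and for Muc5ac at 0.02 FPKM. For Muc5b, αERKO-DES 4 was the highest at 0.01 FPKM and αERKO-veh 1 the lowest at 0.00 FPKM. For Muc5ac, WT-veh 4 and αERKO-DES 3 were the highest, both at 0.01 FPKM, which is the last digit of the table, as it is for these Muc5b values. Mucl1 was at 0.19 FPKM in αERKO-DES 2 and listed at 0 in the other αERKO-DES samples. Prol1 stood at 1374.91 FPKM in WT-veh 4, where the other WT-veh samples reached 3.27 FPKM, at 5.97 FPKM in αERKO-DES 2 and at only 0.07 FPKM in WT-DES 3.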

How the results depend on the processing

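Of 570 values of single mucins that could pass the call rule (all in comparisons with WT-DES, or of Muc20), 543 kept their direction and side of the threshold under another setting. Settings in which a mucin fell under the minimum and was not tested are left out of this count. With a minimum mean FPKM of 5 only 3 mucins were tested, all through their level in WT-DES, and 3 were DEGs in WT-DES versus WT-veh, in αERKO-DES versus WT-DES and in the difference between genotypes, as were 51.4%, 51.2% and 57.0% of all genes tested. With sample weights 1 mucin, Muc20, was a DEG in αERKO-DES versus αERKO-veh. Leaving out 1 sample gave 5 to 6 DEGs in these first 3 comparisons and, without WT-DES 1, where Muc13 was not tested, each had 5. In the other 3 comparisons only Muc20 was high enough to be called, so counts of 0 there say nothing about the other 5. The replicate numbers do not pair the samples (0 to 2 of 4 same-number correlations over 0.1), and with a replicate block 6 mucins were DEGs in WT-DES versus WT-veh and 5 in the difference, where Muc13 had an adjusted p of 0.0516 (limma).

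The share of Muc1 was higher with DES by 9.32 to 15.1 points in WT with 1 sample left out and by 2.76 to 8.52 points in αERKO. In WT the exact permutation p was 0.0571 to 0.114. With the smaller tail doubled, as here, 3 against 4 samples cannot go below 0.0571.

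Muc16 in WT-DES versus WT-veh (0.71) and in αERKO-DES versus WT-DES (-0.89), both still past the test's threshold, and the difference between genotypes for Muc4 (0.53) and Muc13 (0.71) lost their calls with quantile normalization, and Muc16 in αERKO-DES versus WT-DES (-0.74) also with the length trend removed, again with the test passed. Changes that turned direction were all ones that had not passed the test. In αERKO-DES versus αERKO-veh these were Muc1 with quantile normalization (log2 change 0.15) and Muc13 (-0.017) and Muc16 (0.23) with the length trend removed. In αERKO-veh versus WT-veh they were Muc4 without the length trend (-0.34), Muc13 with quantile normalization (-0.0024), Muc16 with sample weights (0.0041) and Muc20 with sample weights (0.22) or rescaled without the top 20 genes (0.016). In αERKO-DES versus WT-veh they were Muc1 with sample weights (-0.036) and Muc4 without the length trend (-0.044). With 1 sample left out, αERKO-DES versus αERKO-veh ran from -0.16 to 0.033 for Muc1, -0.0042 to 0.17 for Muc4 and -0.0046 to 0.019 for Muc13. αERKO-veh versus WT-veh ran from -0.019 to 0.18 for Muc1, -0.0091 to 0.097 for Muc4 and -0.0010 to 0.025 for Muc13, and αERKO-DES versus WT-veh from -0.067 to 0.078 for Muc1. The cause was not tested. Rescaling without the top 20 genes moved the all-gene median log2 change to 0.377 in WT-DES versus WT-veh. Depth is unknown, and values at or under 0.06 FPKM were given little weight, although values above 0 go down to 0.01 FPKM.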
